A study of Mus musculus with 12 samples.

Results

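The cluster of miR-183, miR-96 and miR-182 is a group of 3 neighbouring mouse miRNA genes, Mir183, Mir96 and Mir182, and it is described here in 12 small-RNA libraries of mouse embryonic stem cells. The 3 genes were taken by name from the 2202 miRNA hairpin genes of the GENCODE annotation, with earlier results of these data known. A read was counted for a hairpin when its whole sequence of at least 18 nt matched the annotated hairpin exactly in sense. Levels are in CPM, reads per 1000000 reads of the file.

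A miRNA hairpin is trimmed out of its primary transcript by Drosha and cut by Dicer into a 5p and a 3p arm, 1 of which is usually kept by an Argonaute protein such as Ago2. The kept arm finds targets mainly through its seed, the bases near its 5′ end, so a shift of that end changes the seed. The 3 miRNAs of this cluster are best known from hair cells, photoreceptors and other sensory neurons, where they are made together and needed for normal hearing and vision.

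The study compared RNA bound by Ago2 with its background, and stem cells with and without Ago2 or Dicer. In the TT-FHAgo2 line Ago2 carries FLAG and HA tags ("tagged"), and in the TT-Ago2 line it has no tag ("untagged"). Both are clonal lines kept in 0.1 µg/mL doxycycline and raised to 2.5 µg/mL to induce Ago2. Each line gave 2 immunoprecipitation libraries made with a FLAG antibody (IP) and 2 input libraries. These 8 were cloned by circularization, a protocol independent of the 5′ phosphate. The titles carry 1 of 2 codes, here A and B. Another 4 libraries, 1 a group, were made with the NEBNext kit, whose ligation needs a 5′ phosphate. They are TT-FHAgo2 cells at 2.5 µg/mL ("induced"), the same line labelled with no doxycycline ("uninduced"), wildtype cells and Dicer-null cells, the last pair also with no doxycycline. The series text calls some of its stem cells free of Ago proteins, and its alleles are not named in the sources used here. Gels selected RNA of 18 to 75 nt for all 12 libraries.

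The files held 14474875 to 78762632 reads, so 3 reads, the limit that a count of 0 allows, stand for 0.0381 to 0.207 CPM. Hairpin reads of all miRNAs were 50.7 to 58.3% of the tagged IP, 9.19 to 13.1% of the untagged IP and 1.81 to 3.36% of the inputs. They were 21.1% of the wildtype library, 10.3% of the induced, 1.30% of the uninduced and 1.42% of the Dicer-null library. All 10 stem cell marker hairpins were detected, with a summed level of 10924 to 398494 CPM in the circularization libraries and 255 to 78443 CPM in the others, and 1 of them was at 0 in the uninduced library. Neural, muscle and liver markers summed to at most 3.72 CPM in any library, the fibroblast list to 0.355 to 572 CPM and the blood list, led by Mir142, to 0.317 to 4692 CPM. The fibroblast and blood lists were both highest in the tagged IP, as most hairpins were, and their part in the results below was not tested. Intervals and limits cover counting error only, since copies made by PCR are counted as reads of their own. Nothing in the labels ties replicates to separate cultures, and p-values therefore measure only how far these libraries scatter. In bulk samples fewer cells and less RNA per cell cannot be told apart.

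The hairpins lie on the minus strand of chromosome 6 of GRCm38, Mir183 (ENSMUSG00000065619.2) at chr6:30169668-30169737, Mir96 (ENSMUSG00000065586.1) at chr6:30169446-30169551 and Mir182 (ENSMUSG00000076361.1) at chr6:30165918-30165992. Mir183 and Mir96 are 116 nt apart and Mir182 lies 3453 nt further on, for a span of 3820 nt. No other annotated gene overlaps them, and the nearest genes, Nrf1 (a protein-coding transcription factor gene) and Rncr4 (a lincRNA gene), are on the plus strand on either side. The hairpin sequences, with both mature arms in capitals, show how much of each hairpin becomes a miRNA (RefSeq matures, GRCm38).
Mir183: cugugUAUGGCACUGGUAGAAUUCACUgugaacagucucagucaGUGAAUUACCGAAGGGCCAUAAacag
Mir96: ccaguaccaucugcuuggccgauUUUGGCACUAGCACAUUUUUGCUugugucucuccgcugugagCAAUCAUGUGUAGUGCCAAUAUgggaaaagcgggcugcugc
Mir182: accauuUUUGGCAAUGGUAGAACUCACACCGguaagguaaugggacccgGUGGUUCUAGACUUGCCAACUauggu

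The 5p arms are shown with their seed, bases 2 to 8, in capitals, because the 3 seeds are close to each other but not the same. The sequence of miR-1271-5p is added as the 1 other mature miRNA with the seed of miR-96-5p.
mmu-miR-183-5p: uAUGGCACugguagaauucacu
mmu-miR-96-5p: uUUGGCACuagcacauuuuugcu
mmu-miR-182-5p: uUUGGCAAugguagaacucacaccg
mmu-miR-1271-5p: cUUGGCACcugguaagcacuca

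Among 1738 RefSeq mature sequences searched, no other held the seed of miR-183-5p or miR-182-5p. The miR-1271 hairpin (Gm24195) had 1 read in the wildtype library and 0 in the other 11. So among the miRNAs searched, nearly all reads with the 5p seeds came from the cluster itself. The seed of miR-96-3p was shared by miR-3475-5p, whose hairpin had 0 to 20 reads a library. In the library with 20, the tagged IP B, miR-96-3p itself had 98 reads. Of 425850 Mir183 reads in all libraries, 1 was an 18-nt sequence that Skap2 transcripts hold too.

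All 3 hairpins were found in all 12 libraries and were among the more abundant miRNAs of these cells. Mir96 had the highest level of the 3 in the 8 circularization libraries and the lowest in the 4 ligation libraries. Mir182 was at rank 3 of all hairpins in wildtype cells, while Mir183 was at rank 7 and Mir96 at rank 22. The 3 hairpins together took 1.25 to 5.46% of hairpin reads in the circularization libraries, 9.67% in wildtype, 4.21% in induced, 0.682% in uninduced and 4.46% in Dicer-null cells. Each read is a whole short RNA, so levels of different hairpins need no length correction, but they are not corrected for how well each sequence is cloned, which was not tested.

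**Figure D1:**
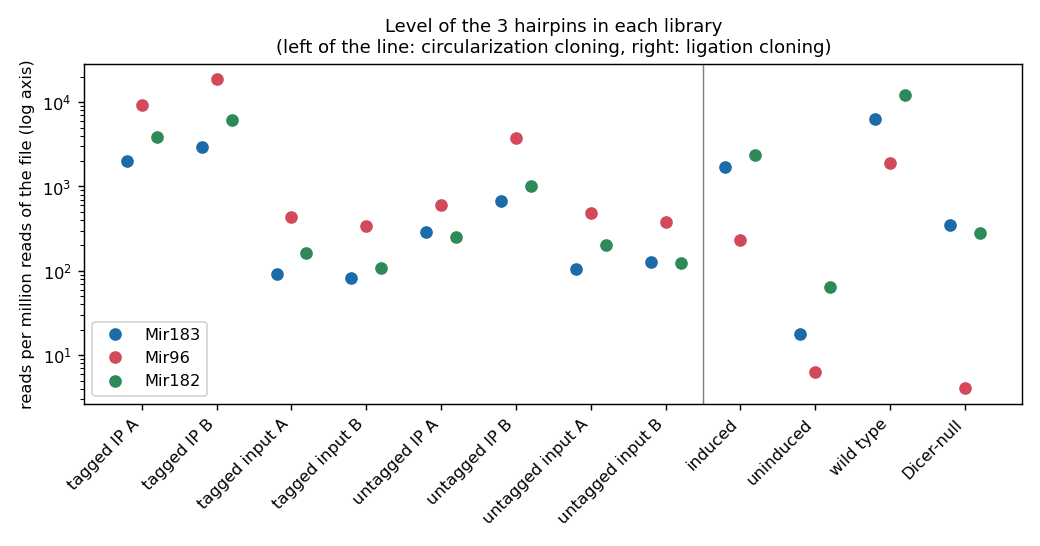
Level of Mir183, Mir96 and Mir182 in each of the 12 libraries (CPM, logarithmic axis), 1 point a library, with a line between circularization and ligation libraries. The tagged IP points lie above all other circularization points for each hairpin, and Mir96 is the highest of the 3 left of the line and the lowest right of it.

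The tagged IP against the untagged IP asks which RNAs come down with tagged Ago2. Mir183 stood at 1987 (A) and 2950 (B) CPM in the tagged IP, against 292 (A) and 678 (B) CPM in the untagged IP. Mir96 reached 9268 (A) and 18682 (B) CPM against 605 (A) and 3774 (B) CPM. Mir182 reached 3823 (A) and 6067 (B) CPM against 249 (A) and 1015 (B) CPM. For each hairpin both tagged libraries lay above both untagged ones, and the B libraries were higher than the A libraries in both IPs. The log2 difference was 2.35 (SE 0.61) for Mir183, 2.67 (SE 0.71) for Mir96 and 2.97 (SE 0.68) for Mir182. With edgeR's quasi-likelihood test and Benjamini-Hochberg adjustment over 698 hairpins the adjusted p was 0.00385, 0.00387 and 0.00385 in the same order (n = 2 per group).

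All 3 were called higher, and so were 546 hairpins, 78.2% of those tested, with 57 lower. The median log2 difference of all hairpins was 2.42, and 317 hairpins lay below Mir183, 488 below Mir96 and 599 below Mir182. The members thus rose with the bulk of the miRNAs. Scaled to hairpin reads the log2 differences were 0.14, 0.57 and 0.82 for Mir183, Mir96 and Mir182, none of them called, and the split of calls over all hairpins was 0 higher and 122 lower; TMM factors gave 1 higher and 98 lower. The untagged IP library B weighed on the size for Mir96: without it the log2 difference was 4.53, and without the untagged IP library A it was 1.89. Within code A the tagged level was 15.3 times the untagged one for Mir96 and for Mir182, and 6.80 times for Mir183; within code B it was 4.95, 5.98 and 4.35 times.

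The tagged IP against its own input asks what the pulldown concentrated from the starting RNA. In the tagged input Mir183 stood at 92.9 (A) and 81.6 (B) CPM, Mir96 at 434.9 (A) and 339.7 (B) CPM and Mir182 at 164 (A) and 108 (B) CPM. Every IP library exceeded every input library for each hairpin, by 21.3 to 56.1 times within a code. The log2 differences were 4.82 (SE 0.68), 5.17 (SE 0.79) and 5.19 (SE 0.76), with edgeR adjusted p of 8.2e-06, 1.2e-05 and 9.9e-06 for Mir183, Mir96 and Mir182 (n = 2 per group). Here 83.4% of hairpins were called higher (582, with 57 lower), and the median of all was 4.86. Scaled to hairpin reads the differences were 0.29, 0.68 and 0.71 and not called, with 35 hairpins higher and 154 lower.

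The untagged IP against its input measures what the FLAG pulldown holds without a tag. In the untagged input Mir183 stood at 106 (A) and 126 (B) CPM, Mir96 at 479 (A) and 382 (B) CPM and Mir182 at 200.4 (A) and 124.4 (B) CPM. The IP was above the input within each code, but by 1.24 to 2.76 times in A and 5.36 to 9.89 times in B. The log2 differences were 2.06 (SE 0.60, adjusted p 0.0148), 2.35 (SE 0.70, adjusted p 0.0153) and 1.96 (SE 0.66, adjusted p 0.0228) in edgeR for Mir183, Mir96 and Mir182. All 3 were called beside 49.0% of hairpins (342 higher, 17 lower, median 1.91). Without the untagged IP library B they fell to 1.33, 0.49 and 0.62 and none was called (edgeR adjusted p 0.152, 0.552 and 0.503), with 80 hairpins higher. Without the untagged input library B none was called either (2.20, 2.19 and 1.66, edgeR adjusted p 0.0965, 0.0925 and 0.141), and without the untagged input library A Mir183 was not (1.94, edgeR adjusted p 0.0713).

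No member was called different between the inputs of the 2 lines. The log2 difference of tagged to untagged input was −0.41 (SE 0.58) for Mir183, −0.15 (SE 0.66) for Mir96 and −0.26 (SE 0.64) for Mir182, each with an edgeR adjusted p of 1, beside a median of −0.33. In this comparison 0.0% of hairpins were called higher. EdgeR called 0 in either direction, where 1 hairpin higher and 22 lower had an unadjusted p under 0.05, and DESeq2 called 0. Scaled to hairpin reads the 3 differences were 0.12, 0.36 and 0.22.

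The gain of the IP over its input was then compared between the lines, with tag and cell line changing together. The tagged line gained more for each member, by a log2 difference of 2.76 (SE 0.83) for Mir183, 2.83 (SE 0.96) for Mir96 and 3.22 (SE 0.92) for Mir182, with edgeR adjusted p of 0.0181, 0.0225 and 0.0170. The same was called for 55.2% of hairpins (385 more, 31 less), with a median of 2.84. No member was called without the tagged IP library A, the tagged IP library B, the tagged input library B or the untagged IP library A (edgeR adjusted p 0.0502 to 0.102). The count of hairpins called higher was then 0, 0, 0 and 78, and without the untagged input library A it was 136. Scaled to hairpin reads the gains were 0.02, 0.22 and 0.60, with no member called and 85 hairpins lower.

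**Figure D2:**
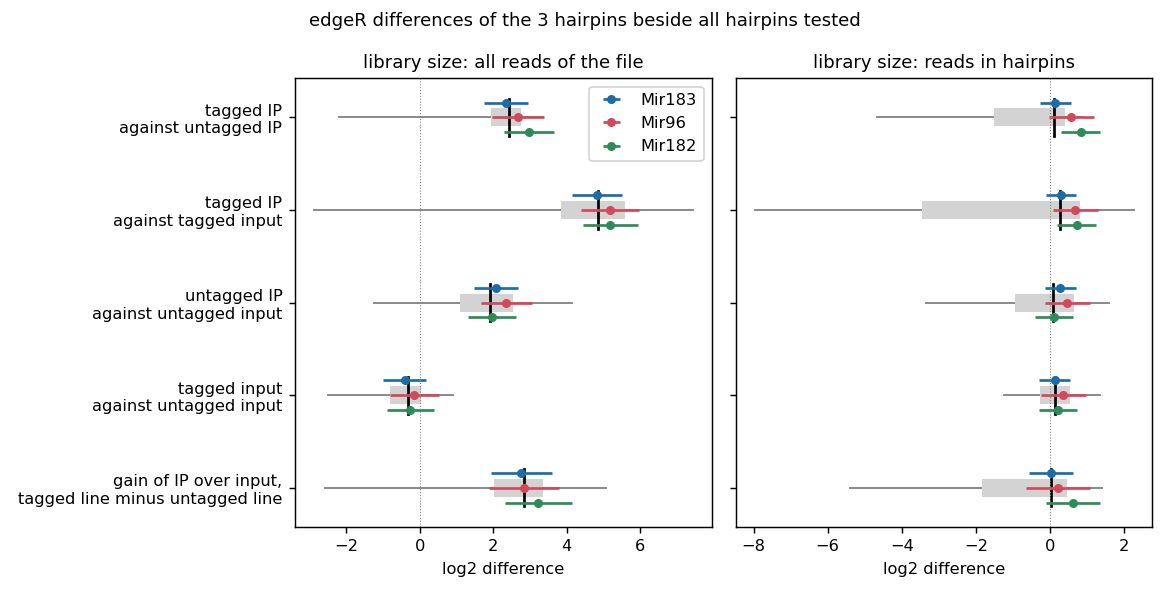
Log2 differences of Mir183, Mir96 and Mir182 with their standard errors in the 5 comparisons, beside all 698 hairpins tested (tick, median; grey bar, quartiles; thin line, 5th to 95th percentile), scaled to file totals (left) and to hairpin reads (right). On the left the members lie within the quartiles of all hairpins, except Mir182 between the IPs, which is above the upper quartile of 2.76, and on the right every member lies between 0.02 and 0.82.

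Other miRNA groups were called higher in the same comparison of the 2 IPs, beside 78.2% of all hairpins (median 2.42). Of the miR-290-295 cluster, the leading miRNAs of these cells, 8 of 9 hairpins were called higher in the tagged IP (median log2 difference 2.25). Its most abundant hairpin, Mir294, stood at 124042 (A) and 82717 (B) CPM against 23348 (A) and 30212 (B). All 6 hairpins of the miR-17-92 cluster, which promotes proliferation, were higher (median 2.62), and so were all 5 of the epithelial miR-200 family (median 2.65). Of 11 sensory and neural hairpins, miRNAs of neurons and sense organs, only 4 passed the filter on low counts. The list summed to 1.35 to 4.28 CPM in the inputs, so the filter favoured hairpins that are high in the tagged IP, and no count is read from them. The most abundant, Mir128-1, reached 47.6 (A) and 57.1 (B) CPM in the tagged IP. A sum of at most 1.02 CPM for the neural markers Mir124a and Mir9 put the level of Mir96 in the tagged IP far above that of neuron-specific miRNAs.

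Each library split its cluster reads among the 3 hairpins in a way that followed the cloning protocol. In the circularization libraries Mir96 gave 52.8 to 69.0% of cluster reads, Mir182 18.6 to 25.5% and Mir183 10.7 to 25.5%. In the ligation libraries Mir96 gave 9.19% in wildtype, 5.33% in induced, 7.18% in uninduced and 0.638% in Dicer-null cells. Mir182 gave 43.8 to 72.6% there and Mir183 20.2 to 55.5%.

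The TT-FHAgo2 line at the same dose was cloned both ways, as induced library and tagged input. Their titles carry different codes, and the labels do not tie them to the same culture. Per 1000000 hairpin reads Mir96 stood at 2245 in the induced library and 14157 (A) and 18817 (B) in the tagged input, a ratio of 0.136. Mir183 stood at 16638 against 3023 (A) and 4522 (B), a ratio of 4.41, and Mir182 at 23209 against 5328 (A) and 5992 (B), a ratio of 4.10. Mir96 was thus lower and its neighbours higher in the ligation library. Of 195 hairpins, 22 had a lower ratio than Mir96, and the quartiles of the log2 ratio of all were −1.41 and 1.97 (median 0.35). With 1 ligation library there is no test, and the level of Mir96 against Mir183 or Mir182 cannot be told apart from the protocol. Between the IPs the ranges overlapped for Mir96 and Mir183 and not for Mir182. Mir96 gave 61.5 (A) and 67.4% (B) of cluster reads in the tagged IP, against 52.8 (A) and 69.0% (B) in the untagged IP (exact permutation p 1). Mir182 gave 25.4 (A) and 21.9% (B) against 21.7 (A) and 18.6% (B), with an exact permutation p of 0.333, the smallest that 2 libraries against 2 allow. Counted by distinct sequences, the sign of the Mir182 difference turned (−3.01 percentage points).

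**Figure D3:**
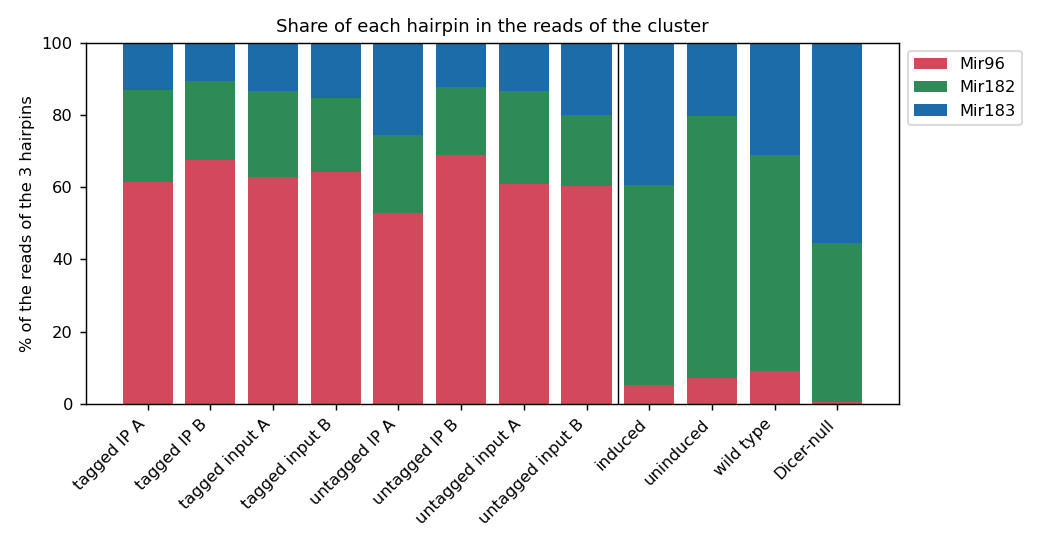
Share of cluster reads from each hairpin in the 12 libraries (percent, stacked bars from 0 to 100). Mir96 takes 52.8% or more in the 8 circularization libraries and 9.19% or less in the 4 ligation libraries.

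The 5p arm supplied nearly all reads in most libraries. The 3p arm gave 0.237 to 1.52% of arm reads of Mir183 over the 12 libraries, 0.017 to 0.131% of Mir96 and 0.249 to 1.88% of Mir182 over the circularization libraries. In the uninduced library miR-96-3p was 79 of 157 arm reads, 50.3% (exact binomial 95% interval 42.2 to 58.4), against 1.89% (1.57 to 2.25) in the induced library. For miR-182-3p the share was 155 of 1595 reads, 9.72% (8.31 to 11.3), against 0.377% in the induced library. The 3p arm was thus a larger part of the few Mir96 and Mir182 reads left uninduced than of the induced reads. For Mir182 this was not particular to the uninduced library. In Dicer-null cells a 26-nt RNA over the 3p arm alone gave 1123 reads, 5.14% of Mir182 reads. There is 1 library of each, so these shares have no replicate check.

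Tested as features of their own, all 6 arms were higher in the tagged than in the untagged IP in edgeR, as were 95.5% of 576 arms. The log2 differences were 2.35 for miR-183-5p, 2.68 for miR-96-5p, 2.97 for miR-182-5p, 2.69 for miR-183-3p, 2.47 for miR-96-3p and 2.44 for miR-182-3p, beside a median of 2.48. Against the tagged input 96.7% of arms and all 6 members' arms were called, but the sizes parted (median of all arms 4.92). The 5p arms stood at 4.83, 5.18 and 5.21 in the same order. The 3p arms of Mir183, Mir96 and Mir182 stood at 4.77, 3.46 and 3.24. Few reads lie behind miR-96-3p. Its 22-nt RefSeq form had 31 (A) and 39 (B) reads in the tagged IP and 1 in each tagged input library. Against the untagged input 57.5% of arms were called higher in the untagged IP, among them the 3 5p arms and miR-183-3p (2.18). There miR-96-3p stood at 0.70 (edgeR adjusted p 0.391) and miR-182-3p at 0.77 (edgeR adjusted p 0.297), not called.

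The share of the 3p arm, taken from the same reads, followed these sizes. For miR-182-3p it was 0.466% ± 0.307 in the tagged IP and 1.54% ± 0.480 in its input (SD, n = 2 each), and for miR-96-3p 0.0383% ± 0.0295 and 0.102% ± 0.0130. In both cases the IP libraries lay below the input libraries, with an exact two-sided permutation p of 0.333. The sign of both differences turned when each distinct sequence was counted once. For miR-183-3p the ranges overlapped.

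The 5′ ends of the 5p arms differed between hairpins and between protocols. Besides the RefSeq end, miR-183-5p often began 1 base inside it (+1), and miR-96-5p and miR-182-5p often began 1 base outside it (−1). The leading shifted forms are printed with bases 2 to 8 in capitals to show the seed that each would carry.
Mir183 +1 form: aUGGCACUgguagaauucacu
Mir96 -1 form: uUUUGGCAcuagcacauuuuugcu
Mir182 -1 form: uUUUGGCAaugguagaacucacacc

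With the extra 5′ base, bases 2 to 8 of miR-96-5p and miR-182-5p became the same letters, where the RefSeq forms differ. The +1 form of miR-183-5p made up 26 (A) and 44.0% (B) of its reads in the tagged IP, 33.2 (A) and 34.4% (B) in the untagged IP and 31.1 (A) and 34.3% (B) in the tagged input. In the untagged input it was 32.7 (A) and 62.1% (B). It was found with both protocols, at 23.7% in the induced, 19.1% in the uninduced and 21.7% in the wildtype library, but at 1.55% in Dicer-null cells.

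The −1 form was seen in the circularization libraries and all but missing from the others. For miR-96-5p it made up 68.4 (A) and 86.3% (B) of reads in the tagged IP, 57.2 (A) and 88.9% (B) in the untagged IP, 61.1 (A) and 87.1% (B) in the tagged input and 73.9 (A) and 61.3% (B) in the untagged input. In the ligation libraries it was 0 of 59921 reads in wildtype, 0 of 6292 in induced, 0 of 78 in uninduced and 0 of 195 in Dicer-null cells. For miR-182-5p it was 38.8 to 72.8% in the circularization libraries and at most 0.00179% in the others. Neither the −1 shares of miR-96-5p and miR-182-5p nor the +1 share of miR-183-5p separated the tagged IP from the untagged IP or the tagged input, with exact permutation p of 0.667 to 1.

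The base at that place in the hairpin is U for Mir96 and Mir182, so an added U cannot be told there from an encoded one, and Mir183, where the template is G, gives the contrast. Among circularization reads of Mir183 with 1 base before the RefSeq end, 77.6 to 86.1% had T, the letter for U in the reads, and 3.32 to 7.63% had the template's G. Such reads, with any base, were 11.2 to 32.2% for Mir183, 59.6 to 91.7% for Mir96 and 39.9 to 75.0% for Mir182, and at most 1.27% in the ligation libraries. So an extra T that the template does not hold was measured at Mir183 in this protocol. Over all hairpins, reads with 1 untemplated 5′ base were 11.0 to 35.1% of matched and such reads together in the circularization libraries and 0.714 to 5.35% in the ligation libraries. How much of the −1 form of miR-96-5p and miR-182-5p is encoded was not tested.

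**Figure D4:**
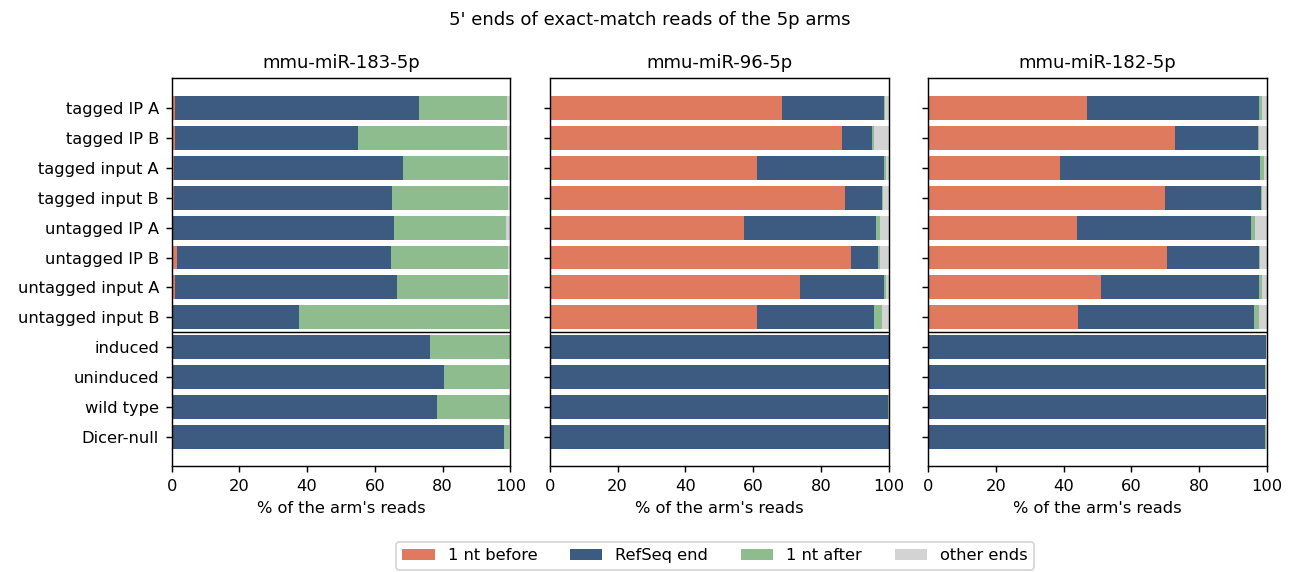
Reads of each 5p arm by 5′ end in the 12 libraries (percent of arm reads, stacked): 1 base before the RefSeq end, at it, 1 base after it, and other ends. The −1 class fills 57.2 to 88.9% of miR-96-5p bars in circularization libraries and is at 0 in ligation libraries, while the +1 class of miR-183-5p appears with both protocols.

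The 3′ ends followed the hairpin. MiR-96-5p ended at the RefSeq base in 97.1 to 98.4% of reads in the circularization libraries and in 95.2% in wildtype cells. MiR-183-5p did so in 62.6 to 76.0% and in 48.7% in wildtype. MiR-182-5p ended 1 base earlier in 50.3 to 60.5% and at the RefSeq base in 25.2 to 35.7% of circularization reads, and in 33.3 and 48.1% in wildtype, where the order turned. Its shorter form made up 57.6% ± 1.86 of tagged IP reads, against 51.3% ± 1.38 of untagged IP reads (SD, n = 2 each), with no overlap and an exact permutation p of 0.333. When each distinct sequence counted once the difference went the other way, at −4.09 percentage points.

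Untemplated bases at the 3′ end were counted apart from the exact reads. Of exact and tailed reads together, those with 1 to 3 such bases were 2.09 to 4.12% for Mir183, 0.808 to 1.41% for Mir96 and 4.68 to 8.73% for Mir182 in the circularization libraries, against 8.08 to 14.4% over all hairpins. In the ligation libraries they were 10.9 to 14.1%, 13.9 to 16.9% and 9.82 to 17.5%, against 16 to 18.5% over all. A single A was the most frequent tail in the circularization libraries, with 53.6 to 84.6% of tailed reads over the 3 hairpins. For Mir96 in the ligation libraries a single C led in the induced (67.0% of 1040 tailed reads) and wildtype library (57.0% of 12307). A single U led in the uninduced (17 of 31, 54.8%, interval 36.0 to 72.7) and Dicer-null library (28 of 58, 48.3%, 35.0 to 61.8). The last 2 rest on few reads.

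Wildtype cells had the highest level of Mir183 and Mir182 among the 4 ligation libraries, and Dicer-null cells kept part of it. Mir183 stood at 6344 CPM in wildtype and 352 CPM in Dicer-null cells, 18.0-fold lower (exact binomial 95% interval 17.8 to 18.3). Mir182 stood at 12171 and 278 CPM, 43.9-fold lower (43.3 to 44.5), and Mir96 at 1874 and 4.04 CPM, 464-fold lower (416 to 520). Of 244 hairpins with enough reads, 87.7% were at or under 1/2 of wildtype, and the median ratio was 0.00241. Mir183 had a higher ratio than 204 of them, Mir182 than 192 and Mir96 than 116. The medians of the other lists were below the ratios of Mir183 (0.0554) and Mir182 (0.0228), and that of the miR-290-295 cluster was above the ratio of Mir96 (0.00215). They were 0.00398 for the miR-290-295 cluster, 0.000664 for the miR-17-92 cluster and 0.000947 for the miR-200 family. As part of hairpin reads alone, Mir183 was at 0.824, Mir182 at 0.339 and Mir96 at 0.0320 of wildtype. Each comparison is of 1 library with 1, so no p is given.

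The forms left in Dicer-null cells were mostly longer than the mature miRNA for Mir183 and Mir182, and mixed in length for Mir96. Longer forms are printed with the bases past the RefSeq 3′ end of the 5p arm in capitals, to show where the RNA ran on into the loop.
Mir183 24 nt: uauggcacugguagaauucacuGU
Mir183 31 nt: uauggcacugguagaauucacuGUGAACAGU
Mir96 25 nt: uuuggcacuagcacauuuuugcuUG
Mir182 27 nt: uuuggcaaugguagaacucacaccgGU
Mir182 32 nt: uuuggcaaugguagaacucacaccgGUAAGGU
Mir182 40 nt: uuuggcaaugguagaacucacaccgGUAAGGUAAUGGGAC

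Of 27693 Mir183 reads in Dicer-null cells, 40.8% were the 24-nt form, 21.1% were 25 nt and 18.2% were 26 nt long, while the 31-nt form gave 9.63% and the 22-nt RefSeq form 1.84%. These RNAs began at the RefSeq 5′ end, and all but the 22-nt form ran past the RefSeq 3′ end. The 24-nt form was not particular to Dicer-null cells, with 11289 reads there and 11949 (5.84%) in wildtype. The 31-nt form had 2668 and 68 reads in the same order. The Dicer-null file is the larger, at 78762632 against 32255916 reads. Of 21858 Mir182 reads 20.3% were the 40-nt form, which reaches the limit of these reads, so longer RNAs are cut to it. The 27-nt form gave 14.1%, the 32-nt form 12.4% and the 25-nt RefSeq form 12.6%. In wildtype the 27-nt form had 3262 reads and the 32-nt form 25, against 3085 and 2706 in Dicer-null cells. Mir96 had 318 reads, 17% of them the 25-nt form and 15.1% the 23-nt RefSeq form. A 22-nt form of its 5p arm gave 11.0%, and an 18-nt piece just before that arm gave 7.23%.

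Reads of 27 nt or more were 14.4% for Mir183, 17% for Mir96 and 56.1% for Mir182 in Dicer-null cells, against 0.0586, 0.00165 and 0.885% in wildtype. Over all hairpins they were 74.3% in Dicer-null and 3.67% in wildtype cells. With reads of 20 to 26 nt alone, the Dicer-null level of Mir182 was 0.00989 of wildtype in place of 0.0228, and that of Mir183 0.0474 in place of 0.0554. Mir183 thus kept most of its reads in the size range of miRNAs, though not at their RefSeq 3′ end, where 2.10% of miR-183-5p reads stopped. A Mir182 RNA of 26 nt from the 3p side, acccggugguucuagacuugccaacu, which begins in the loop, gave 1123 reads (5.14%) in Dicer-null cells and at most 10 in any other library.

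**Figure D5:**
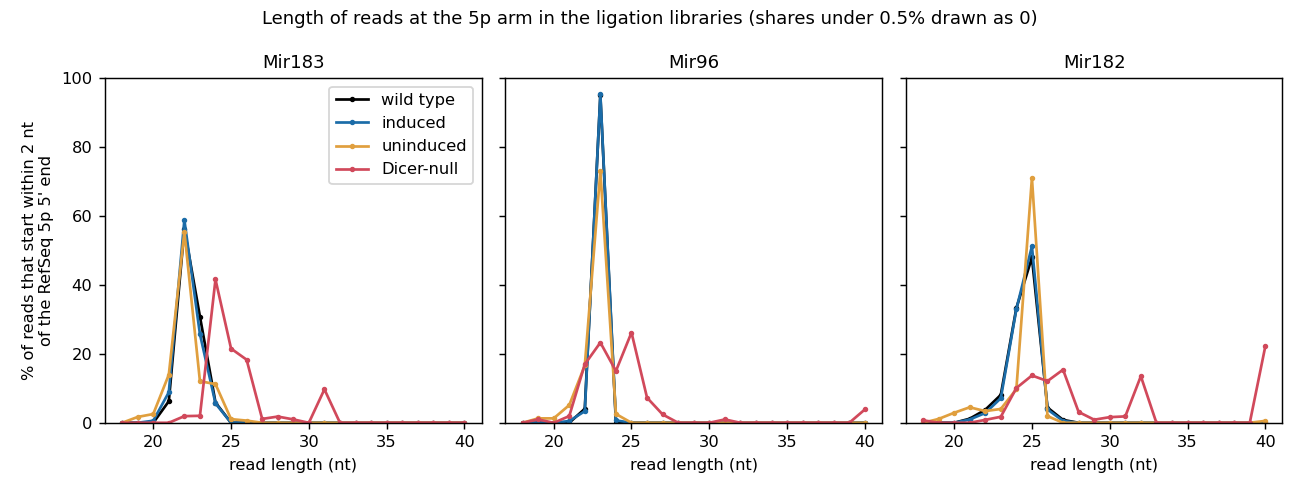
Lengths of reads that start within 2 nt of the RefSeq 5p 5′ end, in the 4 ligation libraries (percent of such reads by length in nt, 1 line a library, shares under 0.5% drawn as 0). Wildtype and induced reads sit at the mature lengths, whereas Dicer-null reads reach further, with Mir183 led by 24 nt (41.6%) and Mir182 by 40 nt (22.2%), the longest read length.

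Cells of the TT-FHAgo2 line with no doxycycline had low levels of all 3 hairpins. Mir183 stood at 17.9 CPM uninduced and 1710 CPM induced, 95.5-fold lower (exact binomial 95% interval 87.3 to 104.8). Mir96 stood at 6.37 and 230.7 CPM, 36.2-fold lower (31.1 to 42.5), and Mir182 at 64.4 and 2385 CPM, 37.0-fold lower (35.3 to 38.9). Of 184 hairpins 81.0% were at or under 1/2, with a median ratio of 0.0251. Mir96 and Mir182 lay near that median, with 98 and 96 hairpins at a lower ratio, while Mir183 had 23 below it. Within hairpin reads the ratios were 0.0828, 0.218 and 0.213 for Mir183, Mir96 and Mir182, beside a median of 0.199. Of the reads that remained, 0.644 to 1.47% had 27 nt or more, against 64.0% over all hairpins. The 23-nt RefSeq form of miR-96-5p was 33.7% of Mir96 reads uninduced and 93.5% induced.

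Pieces that the induced cells hold in small part stood out among the few uninduced reads. The loop of Mir182 between its arms, the 18-nt guaagguaaugggacccg, gave 105 reads (6.14%) uninduced and 106 (0.160%) induced, while the 5p arm was lower. A miR-96-3p form shorter by 2 bases than RefSeq, caaucauguguagugccaau, gave 54 reads (32.0%) uninduced and 54 (0.841%) induced. So the counts of these pieces were alike in files of 26542602 and 27829938 reads, with 1 library of each. In wildtype the loop piece gave 119 reads and the miR-96-3p form 50, and in Dicer-null cells each gave 0.

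Induced cells reached part of the wildtype level. Mir183 was 3.71-fold lower than in wildtype (3.67 to 3.75), Mir96 8.12-fold (7.91 to 8.33) and Mir182 5.10-fold (5.06 to 5.15). Of 265 hairpins 60.0% were at or under 1/2 of wildtype, with a median ratio of 0.397. Within hairpin reads the ratios were 0.553, 0.253 and 0.402, below the median of 0.815.

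Over the 12 libraries, Mir183 and Mir182 varied together and Mir96 did not follow them. Pearson's r of log2 of reads per 1000000 hairpin reads, plus 1, was 0.89 for Mir183 with Mir182, −0.22 for Mir183 with Mir96 and −0.20 for Mir96 with Mir182. The libraries fall into the 2 protocols, and within the 8 circularization libraries the values were 0.70, 0.83 and 0.96 in the same order. Of 295 hairpins with at least 10 CPM on average, the most alike to Mir183 were Mir532 (r 0.92), Mir21a (0.79) and Mir18b (0.74), and to Mir182 they were Mir532 (0.90), Mir21a (0.87) and Mir1839 (0.79). Mir96 was most like a merged Mir466b-8 and Mir466e feature (0.98), Mir139 (0.98) and Mir669o (0.97). These are descriptions over libraries that share a protocol and a scaling, with no test. On the CPM scale all 3 members varied together, with r of 0.63 for Mir183 with Mir96, 0.66 for Mir96 with Mir182 and 0.97 for Mir183 with Mir182.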

How the data were processed

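Small RNAs were sequenced in 12 libraries. The authors deposited 1 file a library with each distinct read sequence and its raw count, not normalised. The trimming and any aligner are not named in the sources used here. No genome was used: reads of at least 18 nt were matched exactly and in sense to the hairpins of the GENCODE M21 annotation (2618 features had reads; sequences that several hairpins hold went to 1 merged feature). Arms were the RefSeq matures of 1018 hairpins: reads of 18 to 30 nt with at least 15 nt in an arm. Reads with 1 untemplated 5′ base or up to 3 untemplated 3′ bases were kept apart.

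The 8 circularization libraries entered 1 fit in edgeR 4.0.16 under R 4.3.3: quasi-likelihood F tests, file totals as library sizes, default low-count filter, Benjamini-Hochberg at 0.05 over all hairpins or arms. The fit was also run on simulated counts with a fixed spread and as many hairpins raised as lowered. These data differ from that setting, so no result is read from it. TMM, DESeq2 1.42.0 and hairpin-read scaling were alternatives, as were no filter, reads of 20 to 26 nt, 3′ tails and leaving out each library. Shares were compared by exact permutation in scipy 1.17.1 (Python 3.11.15, numpy 2.4.6, pandas 2.3.3, matplotlib 3.10.9). Single libraries have ratios with exact binomial 95% intervals and no test. Ratios and likeness used hairpins of at least 10 CPM.

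Besides the members, the text names hairpins that share a seed with them, the 3 most alike to each, the most abundant of each list, and marker lists. The short forms of the uninduced and Dicer-null libraries were chosen after their values were seen. The members and lists were chosen with earlier results of these data known.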

Additional observations from a re-analysis of the deposited data

Results flagged for a closer look

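The gain of the IP over its input differed between the tagged and the untagged line for all 3 hairpins by a test of the difference itself, the interaction in edgeR. It was 2.76 for Mir183, 2.83 for Mir96 and 3.22 for Mir182 on the log2 scale (edgeR adjusted p 0.0181, 0.0225 and 0.0170, n = 2 per group). The calls were lost without any 1 of 4 libraries and when the fit was scaled within hairpins, and the median of all hairpins was 2.84. Line and tag cannot be told apart. No cause was tested.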

How the results depend on the processing

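File-total scaling lets all miRNAs move together, and scaling within hairpins asks whether a member moved more than the rest. With TMM factors, DESeq2 and hairpin-read scaling, in that order, the log2 difference of tagged to untagged IP was 0.045, 0.030 and 0.14 for Mir183, 0.46, 0.45 and 0.57 for Mir96 and 0.72, 0.71 and 0.82 for Mir182, with 1, 0 and 0 hairpins higher and 98, 103 and 122 lower. Against the tagged input it was 0.16, 0.046 and 0.29, then 0.53, 0.43 and 0.68, then 0.59, 0.48 and 0.71, with 37, 43 and 35 higher and 120, 125 and 154 lower. For the untagged IP and input it was 0.12, 0.10 and 0.27, then 0.35, 0.34 and 0.46, then 0.030, 0.021 and 0.11, with 3, 13 and 2 higher and 53, 72 and 49 lower. Between inputs the sign turned, to 0.0031, 0.085 and 0.12, then 0.28, 0.36 and 0.36, then 0.16, 0.25 and 0.22. The gain was 0.042, −0.055 and 0.020, then 0.18, 0.083 and 0.22, then 0.56, 0.46 and 0.60, with 0 higher in each and 77, 96 and 85 lower. No member was called under these 3 scalings, which by construction set the shift shared by most hairpins to about 0. The cause of other changes below was not tested.

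With reads of 20 to 26 nt the lower calls were 32, 32, 11 and 20 for the 2 tagged IP comparisons, the untagged one and the gain, and with no filter 20 for the gain. Arms under TMM stood at −0.060 (miR-183-5p), 0.18 (miR-183-3p), 0.35 (miR-96-5p), −0.0066 (miR-96-3p), 0.62 (miR-182-5p) and −0.088 (miR-182-3p) between the IPs, with 0 arms higher. Against the tagged input they stood at −0.022, 0.13, 0.36, −1.32, 0.43 and −1.45, with 10 arms higher and 34 lower, and for the untagged IP and input miR-96-3p was at −1.06 and miR-182-3p at −0.86.

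Counting each distinct sequence once turned the sign of several shares, in percentage points, tagged IP minus untagged IP and then minus tagged input. These were −6.48 and −13.7 for the 3′ end of miR-183-5p, −10.6 and −23.9 for that of miR-96-5p, −4.09 and −11.9 for the shorter 3′ end of miR-182-5p, −4.49 and −10.9 for its −1 end, 8.55 and 2.05 for miR-96-3p, 6.54 and 8.17 for miR-182-3p, 3.09 and 1.03 for Mir183 in the cluster, −0.0732 and −6.03 for Mir96, and −3.01 for Mir182 (untagged IP only). With reads of 20 to 26 nt miR-183-3p stood at −0.0078 and −0.0259.

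In single libraries hairpin-read scaling gave Dicer-null to wildtype ratios of 0.824, 0.0320 and 0.339 for Mir183, Mir96 and Mir182, uninduced to induced ratios of 0.0828, 0.218 and 0.213, and induced to wildtype ratios of 0.553, 0.253 and 0.402. Reads of 20 to 26 nt gave 0.0474, 0.00151 and 0.00989 for the first, and 0.0250 for Mir182 in the second. With 3′ tails allowed Mir182 stood at 0.0222, 0.0254 and 0.191 in the 3, and Mir96 at 0.119 in the last. Likeness on the CPM scale was 0.632 for Mir183 with Mir96 and 0.659 for Mir96 with Mir182.

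Leaving out each library in turn kept every member's call and sign in both tagged IP comparisons. A group left with 1 library was assumed to vary like the others. Lower calls between the IPs ran from 26 to 74. For the untagged IP against input the range was 1.33 to 2.55 for Mir183, 0.49 to 3.13 for Mir96 and 0.62 to 2.64 for Mir182, with 8 to 372 hairpins higher and 4 to 19 lower. Between inputs it was −0.34 to 0.022 for Mir96 and −0.59 to 0.13 for Mir182. The gain ran from 2.28 to 3.49, 2.04 to 4.68 and 2.54 to 4.57, with 0 to 402 higher and 0 to 24 lower. Arms called lower between the IPs numbered 3 to 10. For the untagged IP and input, arms ran from 0.50 to 3.14 (miR-96-5p), 0.61 to 2.67 (miR-182-5p), 1.32 to 2.55 (miR-183-5p), 1.55 to 3.40 (miR-183-3p) and 0.09 to 2.17 (miR-182-3p), with 41 to 353 higher and 4 to 9 lower.

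Shares, in percentage points against the untagged IP and then the tagged input, ran from −0.403 to 0.526 and −0.511 to 0.549 for miR-183-3p, −0.0928 to 0.0179 against the untagged IP for miR-96-3p and −1.38 to 0.173 for miR-182-3p. The RefSeq 5′ end of miR-183-5p ran from −10.2 to 7.99 and −12.0 to 6.20, its 3′ end from −0.600 to 3.86, and the 3′ end of miR-96-5p from −0.229 to 1.0 and −0.00948 to 0.459. The −1 end ran from −11.5 to 20.1 and −9.80 to 16.3 for miR-96-5p and from −10.6 to 15.7 and −10.1 to 21 for miR-182-5p, whose shorter 3′ end ran from −2.92 to 5.36 against the input. Mir96 in the cluster ran from −4.57 to 11.7 and −2.05 to 3.92, and Mir182 from −0.147 to 3.30 against the input.

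A fit with the code as a replicate block gave 2.40, 2.83 and 3.03 for Mir183, Mir96 and Mir182 between the IPs and changed no member's call, with 564 hairpins higher in place of 546. Deviations of same-coded libraries from their group means had correlations of −0.07 to 0.60 over 698 hairpins. They were 0.60 between the inputs of the lines, 0.55 between the IPs and −0.07 to 0.36 for the other pairs. The longest read was 50 nt in the A libraries and 51 nt in the B libraries. With only 2 codes and no key to them, what they stand for cannot be told. Neither the main fit nor the permutation tests used them. Depth limits Mir96 most, with 169 reads uninduced and 318 in Dicer-null cells, and its 3p arm also in the inputs. The 5′ base alternative was chosen after seeing the data.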
